A study of Arabidopsis thaliana with 12 samples.

Results

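The nuclear genes for the photosystems and for carbon fixation were followed in Arabidopsis thaliana seedlings that had met the bacterial signal oxo-C14-HSL before an immune challenge. Members were chosen by gene name: nuclear genes named as light-harvesting proteins (LHCA, LHCB and CAB), as subunits of photosystem I (PSA) or photosystem II (PSB), or as small subunits of Rubisco (RBCS), together with GAPA, GAPB, PRK, RCA, PETC and PETE1. This gave 54 loci of the 36101 in each table. Plastid genes, whose names are written in lower case, were not taken. PSAT and PSAT1 fit the name pattern but act outside photosynthesis, the former as a phosphoserine aminotransferase of serine synthesis and the latter as a phospholipid sterol acyltransferase, so 52 members belong to the photosynthetic apparatus.

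The 12 libraries came from whole seedlings that were 2 weeks old before the pretreatment. They fell into 4 groups of 3, by genotype (Col-0 or ali1) and by pretreatment. The pretreatment was either oxo-C14-HSL at 6 µM or its solvent acetone as control, and lasted 3 days. All 4 groups, controls included, were then challenged for 2 h with 100 nM flg22, the flagellin peptide that the plant immune receptor recognises, and no unchallenged group was analysed here. The ali1 plants carry a T-DNA insertion in At5g14470 (line N560407) in the Col-0 background, and they are 1 line. The comparison within each genotype asks what the bacterial signal changed in challenged seedlings, and the comparison of both genotypes asks whether that change needs ALI1.

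Each of the 2 tables, 1 per genotype, gave 1 value per gene and group, the FPKM (fragments scaled by transcript length and by the mapped fragments of the library) that the authors pooled over the libraries of a group. No value per library was at hand, so no spread between replicates could be set beside any difference, and no test was run. Ratios are log2 of the FPKM after oxo-C14-HSL over that after acetone with 0.1 FPKM added to each, for loci with a mean of at least 1 FPKM. Ratios of at least 1.5-fold were counted as called. No source used here gives the sequencing depth. The seedlings were whole, so fewer green cells and less RNA per green cell cannot be told apart.

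ALI1 itself (AT5G14470) was listed at 15.0 FPKM after acetone and 11.1 after oxo-C14-HSL under the Col-0 label, and at 27.4 and 30.1 FPKM under the ali1 label. The mean under the Col-0 label was 45.2% of that under the ali1 label, which goes against a loss of the transcript in ali1. An FPKM over the whole gene does not tell on which side of an insertion the fragments lie. The groups are therefore called "labelled Col-0" and "labelled ali1", and every direction that sets them against each other rests on these labels.

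Light-harvesting proteins bind chlorophyll and pass excitation energy to the reaction centres. LHCB1, LHCB2 and LHCB3 form the trimers around photosystem II, LHCB4 to LHCB6 sit between the trimers and the core as monomers, and the LHCA proteins serve photosystem I. Photosystem II splits water, the cytochrome complex and the small copper protein plastocyanin carry electrons on, and photosystem I reduces ferredoxin. Rubisco, built from a plastid-encoded large subunit and nuclear small subunits, then fixes carbon dioxide. In leaves these nuclear genes are among the most abundantly transcribed, are induced by light, and follow the clock.

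Many of these proteins come from small gene families, and how alike the copies are bears on how well short reads can tell them apart. The coding sequences of RBCS1B, RBCS2B and RBCS3B, neighbours on chromosome 5, were 96.7% to 97.3% identical in pairs, and RBCS1A on chromosome 1 matched them at 90.4% to 90.6%. The following stretches, from coding base 447 to 536 of each copy (RefSeq, TAIR10.1), show how little separates them. Capitals mark bases that differ from RBCS1B, none of 90 in RBCS3B, 1 in RBCS2B and 6 in RBCS1A.
RBCS1B: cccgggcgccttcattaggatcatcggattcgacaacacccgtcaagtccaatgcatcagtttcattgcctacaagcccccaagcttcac
RBCS2B: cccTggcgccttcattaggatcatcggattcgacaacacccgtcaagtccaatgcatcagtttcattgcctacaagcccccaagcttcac
RBCS3B: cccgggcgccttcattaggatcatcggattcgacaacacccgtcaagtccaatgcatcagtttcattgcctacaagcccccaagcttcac
RBCS1A: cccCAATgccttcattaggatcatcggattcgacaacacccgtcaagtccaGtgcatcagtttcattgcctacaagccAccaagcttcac

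The LHCB2 family, which held the member with the highest ratio of all under the Col-0 label, is less alike in its LHCB2.3 copy. LHCB2.1 and LHCB2.2, both on chromosome 2, were 96.6% identical over the coding sequence, while LHCB2.3 on chromosome 3 (AT3G27690) was 85.8% and 84.7% identical to them. In the last 90 coding bases, stop codon included, LHCB2.1 differed from LHCB2.2 at 1 base and LHCB2.3 at 20, shown in capitals.
LHCB2.2: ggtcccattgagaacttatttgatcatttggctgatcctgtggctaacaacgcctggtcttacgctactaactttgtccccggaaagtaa
LHCB2.1: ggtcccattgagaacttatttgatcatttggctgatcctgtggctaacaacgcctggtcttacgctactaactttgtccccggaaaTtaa
LHCB2.3: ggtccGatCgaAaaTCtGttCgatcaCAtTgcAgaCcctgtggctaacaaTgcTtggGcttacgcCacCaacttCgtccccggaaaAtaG

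Of the 54 members, 38 had no stretch of 100 bases in their first annotated transcript that another gene's transcript also holds, on either strand. In 8 members over 10% of such windows were shared, most of all PSAG with 55.8% and PSAH-1 with 47.0%. ROPGEF13, the gene that PSAH-1 overlaps, was listed at only 0.0087 to 0.0466 FPKM. PSAG overlaps AT1G55673, which was itself listed at 2537 to 2779 FPKM, above the 1352 to 1512 FPKM of PSAG. PSAE-1 likewise shared 24% of its windows with AT4G28755, listed at 1905 to 2070 FPKM. No source used here says whether counting used the strand, so the division of reads within these overlaps is uncertain.

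The members were among the most abundant transcripts of the seedlings, with 48 of the 54 at 100 FPKM or more in every group and 24 with a mean of at least 1000 FPKM. Together they made up 8.65% and 9.66% of the summed FPKM of all loci outside the plastid under the Col-0 label, after acetone and after oxo-C14-HSL. Under the ali1 label the shares were 9.13% and 8.66%. As markers of green tissue they were thus abundant in all 4 groups, as the seedling label implies.

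RBCS1A, a small subunit of Rubisco, was the most abundant member in every group, at 9845 and 10840 FPKM in acetone and oxo-C14-HSL under the Col-0 label and at 11099 and 10586 under the ali1 label. CAB1, an LHCB1 antenna protein, came next at 6837 and 7667 FPKM under the Col-0 label and at 6391 and 5642 under the ali1 label. PSBR, a small photosystem II subunit near the water-splitting site, was the highest of the photosystem subunits, at 4421 and 4165 FPKM under the Col-0 label and at 4322 and 4127 under the ali1 label. RBCS3B, RCA, RBCS2B, PSBO1, PSBX, PSAL and PSAF completed the 10 highest means, PSAF at 1469 to 1583 FPKM being the lowest of them. Of the 10 most abundant members in the table labelled Col-0, 9 were also among the 10 most abundant in the table labelled ali1.

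At the other end stood copies of low level beside abundant relatives. LHCB4.3 was listed at 2.67 to 3.50 FPKM over the 4 groups, while LHCB4.1, a copy of the same monomeric antenna protein, was listed at 1211 to 1311 FPKM. PSBP-2, a minor copy of an extrinsic photosystem II protein, stayed at 0.247 to 0.375 FPKM, was the only member below the minimum of 1 FPKM, and was marked as not tested in the deposited tables. The remaining 53 members passed the minimum in both tables.

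**Figure D1:**
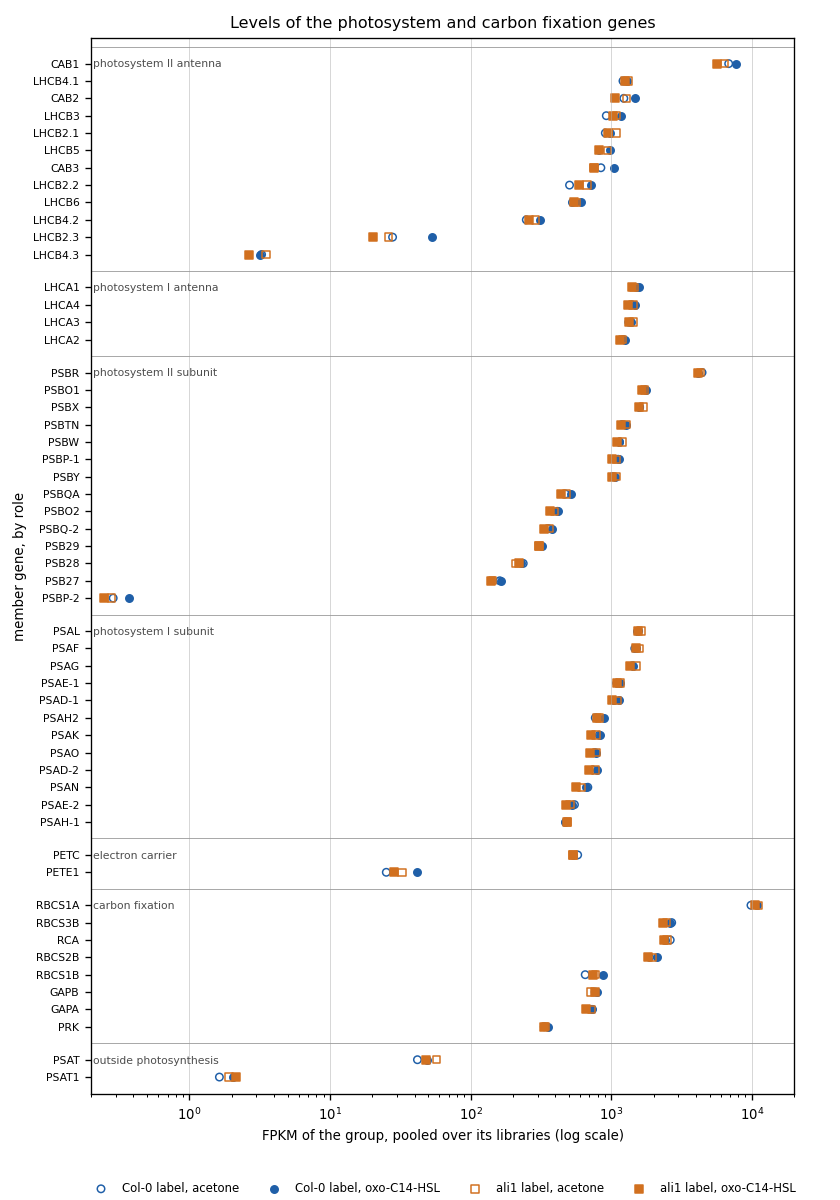
FPKM (log scale) of each member gene, grouped by role, in the 4 groups; circles are groups labelled Col-0 and squares those labelled ali1, open for acetone and filled for oxo-C14-HSL, each point 1 value pooled by the authors over 3 libraries. Most members lie above 100 FPKM with the 4 points close together, and LHCB2.3 and PETE1 show the filled circle apart from the rest at 53.3 and 41.4 FPKM.

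Under the Col-0 label most members were slightly higher after oxo-C14-HSL than after acetone, the photosystem II antenna most of all. The log2 ratio was above 0 in 40 of 53 members (75.5%), against 46.8% of the 16858 loci that passed the same minimum, and the median ratio was 0.063 against −0.017 over all loci. Changes were small: 37 of the 53 members stayed within 1.1-fold. LHCB2.3 and PETE1, 2 of 53 (3.77%), were at least 1.5-fold higher, against 6.39% of all loci, and none was 1.5-fold lower, against 1.75%. At least 25% higher were 5 of 53 members, against 14.5% of loci.

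The other abundant loci of the table give a closer background, since the ratio depended on level there. Of all loci of at least 100 FPKM, 34.1% had a ratio above 0, against 36 of 48 members (75%), and abundant loci that are no members had a median ratio of −0.098, with quartiles of −0.24 and 0.042. LHCB2.2, RBCS1B and LHCB3, 3 of these 48 members (6.25%), were at least 25% higher after oxo-C14-HSL, against 1.61% of such loci. In none of the 48 was the acetone group at least 25% above the oxo-C14-HSL group, against 15.7% of such loci. Measured from that median, 51 of the 53 members lay above it, RCA and PETC being the exceptions, and the members' median was 0.16 instead of 0.063.

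Under the ali1 label nearly every member was slightly lower after oxo-C14-HSL. The ratio was below 0 in 50 of 53 members (94.3%), against 46.8% of 16766 loci, with a median of −0.10 against 0.010 over all loci. The exceptions were GAPB and PSB28, each of at least 100 FPKM, and PSAT1. None reached 1.5-fold in either direction, where 1.03% of all loci were at least 1.5-fold higher and 2.13% at least 1.5-fold lower, and 39 of the 53 stayed within 1.1-fold. In LHCB2.3 and LHCB4.3, 2 of 53, the acetone group was at least 25% above the oxo-C14-HSL group, against 6.87% of loci. Among loci of at least 100 FPKM the ratio was below 0 in 46 of 48 members (95.8%), against 48.8%. None of the 48 differed by 25% or more, where 2.5% of such loci were higher by that much and in 4.85% the acetone group was higher by that much.

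The pair of ratios thus had opposite signs in most members. Higher under the Col-0 label and lower under the ali1 label were 38 of 53 members (71.7%), against 19.6% of the 16528 loci that passed in both tables, and 35 of 48 (72.9%) at 100 FPKM or more, against 11.5%. The reverse pattern was seen in 1 member, PSB28, an assembly factor of photosystem II, against 26.6% of loci. GAPB and PSAT1 were higher under both labels, against 26.8% of loci, and 12 members were lower under both, against 27% of loci. The log2 ratio was higher under the Col-0 label than under the ali1 label in 47 of 53 members, against 45.5% of all loci, with a median difference of 0.17. The tables share no library, but without values per library this difference has no test.

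**Figure D2:**
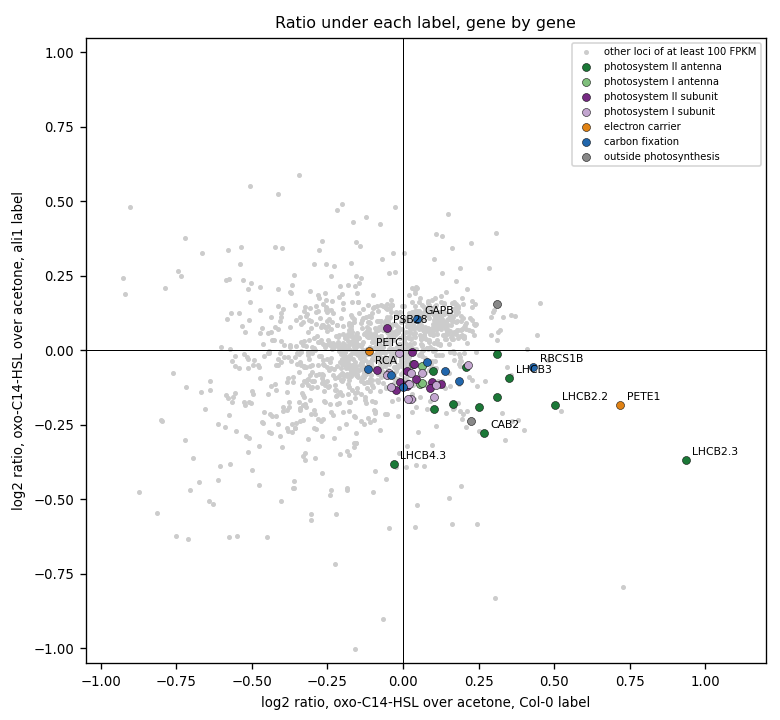
Log2 ratio of FPKM, oxo-C14-HSL over acetone, under the Col-0 label (horizontal) and under the ali1 label (vertical), 1 point per locus; coloured points are the 53 members by role and grey points the other loci of at least 100 FPKM in both tables. Most members lie right of 0 and below 0 (38 of 53), with LHCB2.3 farthest out at 0.94 and −0.37.

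Among the roles with more than 2 genes, the 12 photosystem II antenna genes had the median ratios farthest from 0 under both labels. Under the Col-0 label 11 of them had a ratio above 0, with a median of 0.26, and under the ali1 label all 12 were below 0, with a median of −0.18. Their summed FPKM went from 14085 to 16312 under the Col-0 label, 15.8% higher, and from 14412 to 12914 under the ali1 label. They filled 7 of the 10 highest places among the members' ratios under the Col-0 label and 7 of the 10 lowest under the ali1 label. The trimer proteins (CAB1 to CAB3, LHCB2.1 to LHCB2.3 and LHCB3) had medians of 0.31 and −0.18 under the respective labels, and the monomer proteins (LHCB4.1 to LHCB4.3, LHCB5 and LHCB6) had 0.21 and −0.16.

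LHCB2.3, a copy of the LHCB2 protein whose phosphorylation moves antenna between the photosystems, was listed at 27.9 FPKM after acetone and 53.3 after oxo-C14-HSL under the Col-0 label. The values under the ali1 label were 26.1 and 20.2 FPKM. The oxo-C14-HSL group labelled Col-0 stood above the remaining 3 groups, and the ratios were 0.94 and −0.37, a difference of 1.30 that was the largest of all members. LHCB2.3 shares 22.0% of its windows with AT3G27700, a gene that overlaps it, and that gene was listed at 11.6 and 10.8 FPKM under the Col-0 label and 11.3 and 11.2 under the ali1 label.

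LHCB2.2 had the next largest ratio among the antenna genes, with 505 and 715 FPKM under the Col-0 label and 671 and 591 under the ali1 label. The ratios were 0.50 and −0.18, and the acetone group labelled Col-0 was the lowest of the 4 groups. LHCB2.1, its near-identical neighbour and the more abundant copy, was listed at 907 and 975 FPKM under the Col-0 label and at 1081 and 944 under the ali1 label. The listed shares of the copies in the family thus differed after oxo-C14-HSL under the Col-0 label. Such shares do not depend on how libraries were scaled, but they do depend on how reads were divided between the copies. LHCB2.1 went from 63.0% to 55.9% of the summed FPKM of the family, LHCB2.2 from 35.1% to 41.0% and LHCB2.3 from 1.93% to 3.06%. The shares of LHCB2.1 were 60.8% and 60.7% under the ali1 label. LHCB2.1 shares 9.87% of its windows with LHCB2.2, and LHCB2.2 shares 12.4% of its windows with LHCB2.1. Part of their reads therefore cannot be assigned to either copy. The shares come from pooled values, so the shift under the Col-0 label could not be set beside a spread between replicates.

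LHCB3, the trimer protein with no further copy, was listed at 922 and 1175 FPKM under the Col-0 label and at 1091 and 1023 under the ali1 label. Here too the acetone group labelled Col-0 was the lowest of the 4 groups. Among the LHCB1 genes taken as members CAB3 had the highest ratio under the Col-0 label (844 and 1047 FPKM, 0.31) and was nearly level under the ali1 label (756 and 750 FPKM). CAB2 was listed at 1228 and 1479 FPKM under the Col-0 label and at 1287 and 1062 under the ali1 label, where its ratio of −0.28 was the lowest of any member of at least 100 FPKM. The CAB1 ratios were 0.17 and −0.18.

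The remaining LHCB1 genes are named LHB1B1 and LHB1B2 in the tables and so are no members. LHB1B1 was listed at 349 and 502 FPKM under the Col-0 label and at 683 and 593 under the ali1 label, ratios of 0.52 and −0.20. For LHB1B2 the values were 4997 and 5098 FPKM, then 6194 and 5364, ratios of 0.029 and −0.21, and its whole transcript lies within windows shared with another gene. All 5 LHCB1 genes were therefore above 0 under the Col-0 label and below 0 under the ali1 label, although the rule took only 3. Other photosystem genes that the rule missed did not show this pair of signs. Lhca6 (0.62 and 0.041) and NPQ4, also named PSBS (0.039 and 0.20), were above 0 under both labels. LHCB7 (AT1G76570, −0.31 and 0.067) and PSB33 (AT1G71500, −0.066 and 0.011) had the reverse signs, and PSI-P had −0.017 and −0.049.

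Of the monomeric antenna genes, LHCB5 was listed at 822 and 980 FPKM under the Col-0 label and at 936 and 822 under the ali1 label. LHCB4.2 had ratios of 0.31 and −0.16 and LHCB6 of 0.21 and −0.055. LHCB4.3, the copy of low level, was the antenna gene whose ratio under the Col-0 label was not above 0 (3.26 and 3.19 FPKM), and its ratio of −0.38 under the ali1 label (3.50 and 2.67 FPKM) was the lowest of all 53 members. The 4 photosystem I antenna genes, LHCA1 to LHCA4, had smaller median ratios than the photosystem II antenna, 0.060 and −0.081 under the respective labels, and lay between 0.034 and 0.063 under the Col-0 label and between −0.11 and −0.046 under the ali1 label.

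**Figure D3:**
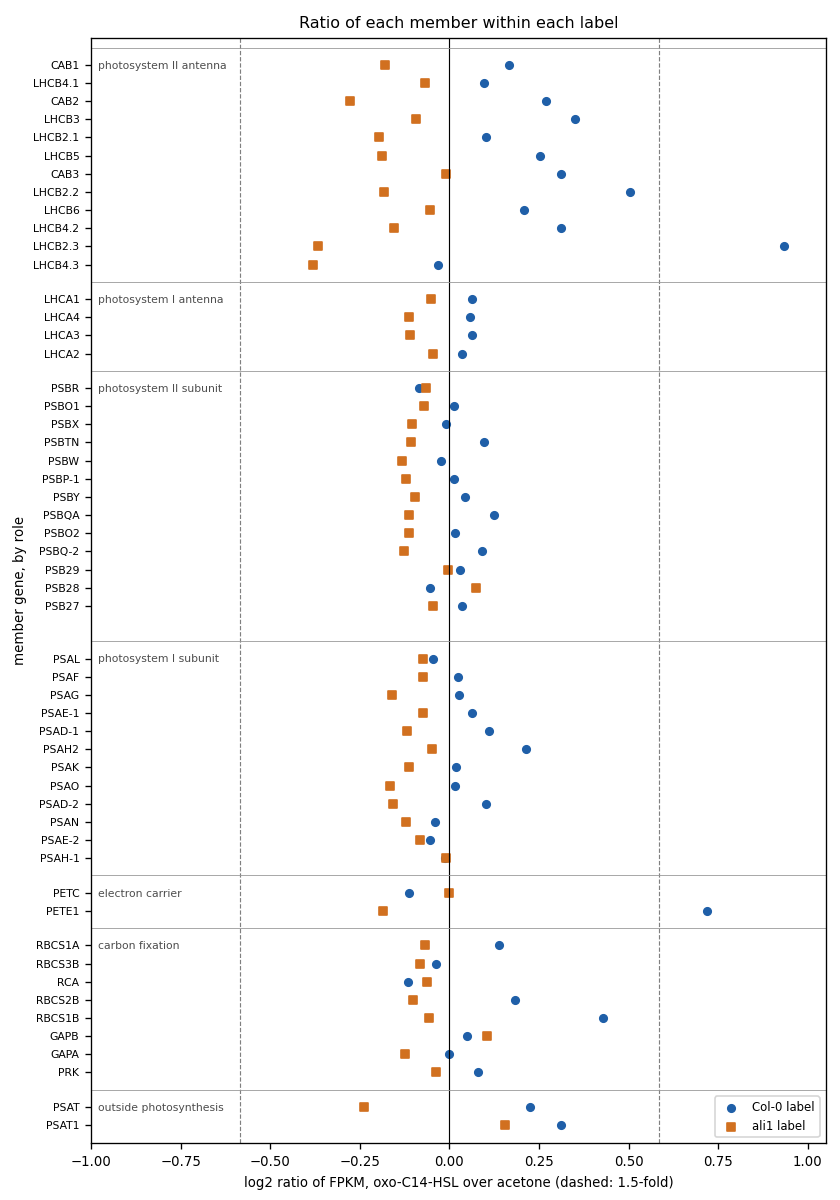
Log2 ratio of FPKM, oxo-C14-HSL over acetone, for the 53 members that passed 1 FPKM, grouped by role and ordered by level; circles are the Col-0 label, squares the ali1 label, dashed lines 1.5-fold. The circles of 11 of 12 photosystem II antenna genes lie right of 0 and all 12 of their squares left of it, and the photosystem subunits sit close to 0 under the Col-0 label.

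The photosystem subunits differed from their antenna in size more than in sign. The 13 photosystem II subunits and assembly factors that passed had a median ratio of 0.016 under the Col-0 label, 9 above 0, and of −0.10 under the ali1 label, 12 below 0. The 12 photosystem I subunits had medians of 0.022 and −0.098, with 8 above 0 and 12 below 0. PSAH2, a subunit where LHCII docks on photosystem I, had the highest ratio of these under the Col-0 label (770 and 893 FPKM, 0.21), whereas its relative PSAH-1 was listed at 476 and 472 FPKM. PSAH2 was listed at 826 and 798 FPKM under the ali1 label. It shares 12.4% of its windows with an overlapping gene, ROPGEF11, which was listed at only 0.756 to 1.02 FPKM.

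PSBO1 and PSBO2, copies of the manganese-stabilising protein of water splitting, had ratios of 0.014 and 0.016 under the Col-0 label, and PSBO1 made up 80.8% of their sum in both groups. PSBQA and PSBQ-2, which code for another extrinsic protein there, had 0.13 and 0.091. PSBR and PSAE-2, a stromal subunit of photosystem I, were among the lowest members under the Col-0 label, with ratios of −0.086 and −0.054, and had −0.067 and −0.083 under the ali1 label. PSB29, a protein of photosystem II biogenesis, was nearly level, with 0.030 and −0.0037. PSB28, at 237 and 228 FPKM under the Col-0 label and 211 and 222 under the ali1 label, had ratios of −0.053 and 0.074.

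Without the photosystem II antenna, 29 of the 41 remaining members had a ratio above 0 under the Col-0 label, against 46.8% of all loci, with a median of 0.034. Under the ali1 label 38 of 41 were below 0, against 46.8% of loci, with a median of −0.083. Most members outside the antenna thus had the members' sign in each comparison taken alone, at smaller ratios. Both medians lie within 0.1 of 0, where under the Col-0 label the sign of a member depends on the scaling. Under the ali1 label 50 of 53 members stayed below 0 when centred on all loci or on the other abundant loci.

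Of the electron carriers, PETE1 and PETC went apart. PETE1 (AT1G76100), the minor plastocyanin, was listed at 25.1 and 41.4 FPKM under the Col-0 label and at 32.4 and 28.5 under the ali1 label, ratios of 0.72 and −0.18. Its transcript shared no window with another gene. The major plastocyanin gene, named DRT112 in the tables and no member, was listed at 1145 and 1204 FPKM under the Col-0 label and at 1221 and 1131 under the ali1 label, so that the share of PETE1 in the pair went from 2.15% to 3.32% under the Col-0 label and from 2.59% to 2.46% under the ali1 label. PETC, the Rieske iron-sulphur protein of the cytochrome complex, was listed at 577 and 533 FPKM under the Col-0 label and at 534 and 533 under the ali1 label.

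The 8 carbon fixation genes had a median ratio of 0.064 under the Col-0 label, 5 above 0, and of −0.065 under the ali1 label, 7 below 0. Their highest ratio was that of RBCS1B, the least abundant small subunit gene, at 653 and 879 FPKM under the Col-0 label and 776 and 746 under the ali1 label. The oxo-C14-HSL group labelled Col-0 was the highest of the 4 and the acetone group of that label the lowest. Levels under the 2 labels come from separate tables. RBCS2B was listed at 1867 and 2122 FPKM under the Col-0 label and 1969 and 1835 under the ali1 label, and RBCS3B at 2688 and 2617, then 2470 and 2333. RBCS1B and RBCS3B share windows of 100 bases, 7.47% of those of RBCS1B and 12.1% of those of RBCS3B, so part of their reads cannot be assigned to either.

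Within the small subunit family RBCS1B went from 4.34% to 5.34% of the summed FPKM under the Col-0 label and RBCS3B from 17.9% to 15.9%. The shares of RBCS1B were 4.75% and 4.81% under the ali1 label. RBCS1A held 65.4% and 65.9% under the Col-0 label and 68.0% and 68.3% under the ali1 label.

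RCA, the activase that frees Rubisco of inhibiting sugars, was the lowest member under the Col-0 label, at 2625 and 2425 FPKM and a ratio of −0.11, and under the ali1 label it was listed at 2484 and 2380 FPKM. GAPA and GAPB, the subunits of the plastid glyceraldehyde-3-phosphate dehydrogenase, had ratios of −0.00029 and 0.048 under the Col-0 label. Under the ali1 label GAPA was listed at 723 and 663 FPKM and GAPB at 710 and 764, the latter the highest ratio there among members of at least 100 FPKM (0.11). PRK, the phosphoribulokinase that makes the substrate of Rubisco, was listed at 334 and 353 FPKM under the Col-0 label and 339 and 330 under the ali1 label. GAPA shares its row with LWD2, which makes it 1 of 6 member loci that hold more than 1 named gene.

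PSAT, the serine synthesis gene caught by the name pattern, had ratios of 0.23 and −0.24 (41.8 and 49.0 FPKM under the Col-0 label, 57.1 and 48.4 under the ali1 label). PSAT1 stayed at 1.63 to 2.14 FPKM.

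**Figure D4:**
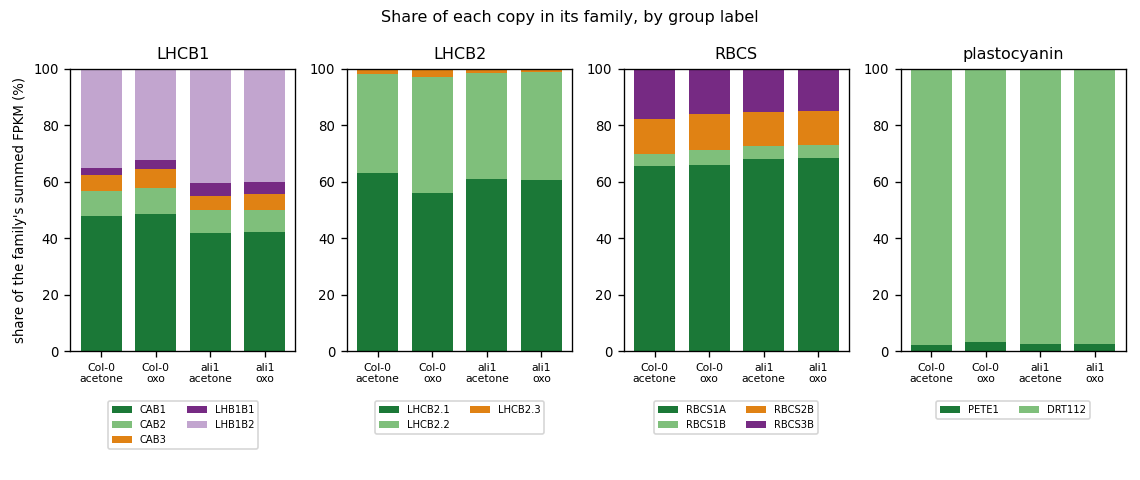
Share (%) of each gene copy in the summed FPKM of its family in the 4 groups, for LHCB1, LHCB2, RBCS and plastocyanin; each bar adds to 100%. In LHCB2 the share of LHCB2.1 is 55.9% in the oxo-C14-HSL group labelled Col-0 and 60.7% to 63.0% in the other groups, and PETE1 is at most 3.32% of plastocyanin.

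Members that share a light-regulated expression often hold short motifs ahead of the gene, such as the G-box, bound by bZIP and bHLH factors, and the I-box. In the 250 bases before the annotated start, searched on both strands, the G-box CACGTG was found in 25% of 52 photosynthetic members against 6.49% of 27443 genes, and the I-box GATAAG in 25% against 12.3%. The TATA box TATAAA was found in 38.5% against 47.3%. The CCA1 site AAAAATCT was found in 7.69% against 6.69%, and the evening element AAAATATCT in none against 2.36%. Of the 12 antenna genes of photosystem II, 3 held a G-box.

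The windows of LHCB2.3, LHCB2.2, PETE1 and CAB2 are shown because the first 3 had the highest ratios under the Col-0 label and CAB2 the lowest ratio of an abundant member under the ali1 label. They lie at chr3:10255656-10255905 (plus strand), chr2:1800473-1800722, chr1:28554931-28555180 and chr1:10475970-10476219 (minus strand for these), in TAIR10.1, and end at the base before the annotated start. Capitals mark the G-box of LHCB2.3, which begins 88 bases before the start, and the CCA1 site of CAB2, which begins 78 bases before it. The windows of LHCB2.2 and PETE1 held no G-box, I-box, CCA1 site or evening element.
LHCB2.3: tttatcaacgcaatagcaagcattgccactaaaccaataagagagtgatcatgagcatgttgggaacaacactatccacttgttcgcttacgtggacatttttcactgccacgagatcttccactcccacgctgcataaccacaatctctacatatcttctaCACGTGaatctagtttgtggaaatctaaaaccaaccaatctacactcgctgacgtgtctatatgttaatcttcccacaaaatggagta
LHCB2.2: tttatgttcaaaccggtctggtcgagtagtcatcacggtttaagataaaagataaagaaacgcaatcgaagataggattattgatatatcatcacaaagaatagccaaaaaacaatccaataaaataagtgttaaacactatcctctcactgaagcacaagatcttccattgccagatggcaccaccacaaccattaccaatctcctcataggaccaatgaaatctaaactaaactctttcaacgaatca
PETE1: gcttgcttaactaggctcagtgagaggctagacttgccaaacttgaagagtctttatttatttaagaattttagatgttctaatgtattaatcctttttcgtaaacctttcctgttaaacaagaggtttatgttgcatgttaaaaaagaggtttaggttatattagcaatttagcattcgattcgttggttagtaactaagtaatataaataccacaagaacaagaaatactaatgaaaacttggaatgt
CAB2: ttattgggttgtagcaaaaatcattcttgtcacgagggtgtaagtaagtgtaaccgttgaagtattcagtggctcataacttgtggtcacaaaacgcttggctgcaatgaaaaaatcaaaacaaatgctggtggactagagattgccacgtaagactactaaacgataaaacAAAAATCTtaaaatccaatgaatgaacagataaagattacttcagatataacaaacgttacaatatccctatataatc

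Other parts of the photosynthetic machinery were set beside the members by lists. Chlorophyll synthesis had a ratio above 0 in 18 of 23 genes under the Col-0 label (median 0.068), against 46.8% of all loci. Under the ali1 label 13 of 23 were above 0 (median 0.029), against 53.2% of loci. PORB, a light-dependent protochlorophyllide reductase, was listed at 18.8 and 27.9 FPKM under the Col-0 label and at 20.7 and 20.9 under the ali1 label. CRD1, a subunit of the cyclase that makes the fifth ring of chlorophyll, was listed at 793 and 911 FPKM and at 883 and 849.

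The other Calvin cycle genes did not share the members' sign under the ali1 label. Above 0 were 8 of 14 under the Col-0 label (median 0.020), against 46.8% of all loci. Under the ali1 label 11 of 14 were above 0 (median 0.063), against 53.2% of loci. The list of other electron transport, ATP synthase and photoprotection held 21 genes. Under the Col-0 label 7 of 21 were above 0 (median −0.082), against 46.8% of all loci and 34.1% of those of at least 100 FPKM. Under the ali1 label 5 of 21 were above 0 (median −0.036), against 53.2% and 51.2% of these loci. NPQ4, the photoprotective PsbS protein, is among the 21 genes, with ratios of 0.039 and 0.20. Photorespiration is the salvage of the product that Rubisco makes with oxygen. Of its 13 genes, 3 were above 0 under the Col-0 label, against 46.8% of all loci, and 7 under the ali1 label, against 53.2%. No gene of these lists or of chlorophyll synthesis reached 1.5-fold. Measured from the median of the other abundant loci, the medians of electron transport and photorespiration under the Col-0 label changed sign, to 0.016 and 0.058.

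Regulators of these genes did not share a direction. Of 20 light and plastid regulators, 8 were above 0 under the Col-0 label (median −0.048), against 46.8% of all loci. That median changed sign to 0.049 when measured from the other abundant loci. Under the ali1 label 9 of 20 were above 0 (median −0.0043), against 53.2% of loci. At least 1.1-fold from level were 10 of the 20 under the Col-0 label and 7 under the ali1 label. The members' pattern, higher under the Col-0 label and lower under the ali1 label, was seen in 5, against 19.6% of all loci. The reverse was seen in 6 (HY5, HYH, PIF5, COP1, CCA1 and LHY), against 26.6% of loci. HY5, a factor that promotes light-induced genes, was listed at 31.6 and 25.3 FPKM under the Col-0 label and at 22.5 and 22.8 under the ali1 label. The lowest ratio under the Col-0 label was that of SIG5, a sigma factor of the plastid polymerase (−0.50), and the highest that of PIF4, a light-signalling factor (0.50). GLK1, a factor that drives antenna and chlorophyll genes, was listed at 79.1 and 84.0 FPKM under the Col-0 label and at 95 and 91.4 under the ali1 label. Of 13 genes of chlorophyll breakdown and senescence, 11 were below 0 under the Col-0 label (median −0.29), against 53.2% of all loci. Under the ali1 label 9 of 13 were below 0 (median −0.12), against 46.8% of loci. SEN1 and DIN6 were above 0 under the Col-0 label, and NYE1, NOL, ACD2 and SEN1 under the ali1 label. The lowest was SAG13, with ratios of −0.52 and −1.18, the latter past 1.5-fold.

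Root tissue in whole seedlings was followed by a list of 22 marker genes, 21 of which had a locus and 11 passed 1 FPKM. Their summed FPKM was 446 and 588 under the Col-0 label and 487 and 495 under the ali1 label. Of the 11, 8 were above 0 under the Col-0 label (median 0.27), against 46.8% of all loci. Under the ali1 label 5 were above 0 (median −0.063), against 53.2% of loci. PYK10, the main root beta-glucosidase, was listed at 371 and 505 FPKM under the Col-0 label and at 391 and 405 under the ali1 label. BGLU21, BGLU22 and NRT2.1 were at least 1.5-fold higher under the Col-0 label (2.94, 0.87 and 0.61), against 6.39% of all loci. These 3 were at least 1.5-fold lower under the ali1 label (−1.84, −1.12 and −1.28), against 2.13% of loci. Levels were low, with BGLU21 at 0.36 and 3.43 FPKM and NRT2.1 at 1.80 and 2.80 under the Col-0 label. The endodermal genes CASP1 and CASP2 were at least 1.5-fold higher under the ali1 label (0.76 and 0.62), against 1.03% of loci. CASP1, ESB1 and MYB36 went the other way, with −0.54, −0.32 and −0.43 under the Col-0 label and 0.76, 0.54 and 0.12 under the ali1 label. Of the 21 root loci, 3 were listed at 0 after acetone under the Col-0 label (EXPA18, COBL9 and RHD6) and 2 after oxo-C14-HSL under the ali1 label (EXPA18 and IRT1). The part of the root share in the members' ratios was not tested.

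Of the 6 reference genes, 5 were below 0 under the Col-0 label (median −0.11), against 53.2% of all loci. Under the ali1 label 3 were below 0 (median −0.0042), against 46.8% of loci. Measured from the other abundant loci, 3 of 6 were below 0 under the Col-0 label. Of the shoot apex markers 1 passed, with ratios of 0.17 and 0.23. The plastid-encoded partners could not be compared between the labels, since the 44 loci marked as too deep in the table labelled ali1 are plastid loci listed at 0 after acetone. Under the Col-0 label the locus that holds psbK and trnS was listed at 110 and 104 FPKM, and rps12 at 39.8 and 53.4 FPKM.

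Outside the membership, 5 loci of the 1261 searched at 100 FPKM or more lay nearest to the members' medians by the distance of both ratios: FAD5, DRT112, TRX3, PDIL1-1 and ARFA1D. DRT112 is the major plastocyanin gene already described. FAD5, a plastid fatty acid desaturase, was listed at 139 and 145 FPKM under the Col-0 label and at 143 and 133 under the ali1 label. TRX3, an h-type thioredoxin, had ratios of 0.072 and −0.12. PDIL1-1, a protein disulfide isomerase, had 0.076 and −0.11, and ARFA1D had 0.074 and −0.077.

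Within the membership the ratios under both labels ran against each other, with Pearson's r of −0.35 and Spearman's rho of −0.25 over 53 genes. Over the 48 members of at least 100 FPKM they were −0.31 and −0.24. All loci of at least 100 FPKM, members included, had 0.15 and 0.23 over 1309. The relation of ratio to log2 level under the Col-0 label had r of −0.36 and rho of −0.20. These correlations are across genes of the same libraries, and genes are not independent replicates.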

How the data were processed

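RNA-seq of 12 libraries in 4 groups of 3 was deposited as 2 tables, 1 per genotype. Per the study's methods and the submitters' processing notes, reads were aligned with RNA STAR to TAIR10, transcripts were built with Cufflinks (2.2.1.0) and merged, and groups were compared with Cuffdiff (2.2.1.5). The FPKM values were deposited by the authors as 1 value per locus and group, pooled over replicates. The tables also hold the authors' fold changes, test statistics, p-values and q-values, which were not used. The status of each locus was read to leave out the 44 loci marked as too deep in the table labelled ali1 and to report members marked as not tested. Groups follow the sample titles and the headers of the tables. The description attached to the libraries names the comparison of the other genotype and was not followed.

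Log2 ratios were taken with a pseudocount of 0.1 FPKM for loci with a mean of at least 1 FPKM (Python 3.11.15, pandas 2.3.3, numpy 2.4.6), and the procedure was tested on simulated data. Nothing in the values gives the depth, so no interval was drawn and fold changes of low genes are understated. The members and lists were chosen with earlier results of these data known. Named in full were the 10 most abundant members and the 5 highest and 5 lowest ratios of each comparison and of their difference. All carbon fixation genes and electron carriers, and members of low level or of another function, were named too. From each list up to 3 genes past 1.5-fold were named. Other genes of the lists (PORB, CRD1, NPQ4, PYK10, ESB1, MYB36 and the light and plastid regulators) and further members were picked with their values known. Sequences, promoters and overlaps come from RefSeq (TAIR10.1), whose gene positions match the tables. All 54 members matched by symbol or locus. PPOX1, GGT1 and TIP2-3 of the lists had no matched locus and were not analysed here. Alternatives were other folds, pseudocounts, minimums, centrings and sets of members.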

Additional observations from a re-analysis of the deposited data

How the results depend on the processing

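No paired analysis was possible because the tables hold 1 pooled value per group, and for the same reason no library could be left out. The number of members at least 1.5-fold higher under the Col-0 label (2) was 5 at 25% higher and 0 at 2-fold, 0 among loci of at least 100 FPKM, and 1 without the members that share over 10% of their windows with another gene, an alternative chosen after seeing the data. Under the ali1 label the number at least 1.5-fold lower (0) was 2 where the acetone group was at least 25% above the other. The other 102 results of an alternative stayed within 1.5 times the count, or within 0.1 of the median with the same sign. That tolerance is wider than the Col-0 median itself: 0.063 became 0.16, and the median of the photosystem II subunits went from 0.016 to 0.11, when centred on the other abundant loci. The count above 0 under the Col-0 label ran from 34 of 46 members, without the RBCS and LHCB1 loci, to 51 of 53, centred on the other abundant loci, also chosen after seeing the data. The count below 0 under the ali1 label ran from 42 of 45 to 51 of 54. The median difference of the log2 ratios ran from 0.14 to 0.19. Under the Col-0 label the signs of members within about 0.1 of 0 depend on the scaling. Measured from the other abundant loci, 13 of 13 photosystem II subunits and 12 of 12 photosystem I subunits were above 0 there. Copies that share sequence, and genes on both strands, limit the values of single members.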
